A study of Mus musculus with 4 samples.

Results

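WT1 is a zinc-finger transcription factor that marks nephron progenitors and podocytes, and chromatin immunoprecipitation followed by sequencing (ChIP-seq) maps where it sits on DNA. Described here are the peaks of WT1 replicate 1 at a significance cutoff that WT1 replicate 2 did not repeat. They were chosen by 2 measured values, a significance value of 0.01 or lower in replicate 1 and no replicate 2 peak sharing even 1 base, on chromosomes 1 to 19, and are called unshared peaks below. There were 4678 of them among 13716 replicate 1 peaks at that cutoff (34.1%, exact 95% interval 33.3 to 34.9) and among 53132 replicate 1 peaks in all. The other 9038 peaks at the cutoff overlapped a replicate 2 peak and serve as the comparison, called shared peaks. The significance value is the number the authors deposited for each peak. Its range fits a p-value or a q-value, and the sources do not say which.

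All material came from kidneys dissected from wild-type E18.5 embryos with a mixed background, C57Bl6 crossed with B6DBA/F1, and the labels name no mutant allele and no treatment. The study held 2 immunoprecipitations with a WT1 antibody and 2 with control IgG. The IgG samples were not analysed here, so no background level of a control stands beside the values. The labels do not say how many embryos went into a sample, or whether the replicates came from separate embryos. The kidney at this stage holds progenitors, forming glomeruli, tubules, stroma, vessels and ureteric bud together, and a peak list cannot tell in which of them a site was bound.

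In a transcription factor ChIP, sites bound in many cells usually recur between samples, and WT1, like its relatives of the EGR family, is known to bind GC-rich DNA, often at promoters. With 1 library holding the unshared peaks there is no test between samples. Shares are given with exact 95% intervals and differences of shares with Newcombe 95% intervals, all of which cover counting error over peaks only. The depth behind a peak is unknown, because the files hold no read counts. Genome positions are 1-based and in mm10. Genes are the 20665 protein-coding RefSeq genes of chromosomes 1 to 19 in GRCm38.p6. Each peak was assigned a place from its middle base. Exons and introns were not used here, so a peak inside a gene cannot be assigned to either.

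The sequences of 5 unshared peaks with midpoints upstream of genes are shown for a feature of their edges. Peaks on chromosomes 8 and 18 were left out of the choice. Of the edges that could be read, all near gene starts, many coincide with restriction sites. Per the labels' protocols, MseI was used together with either AluI or HaeIII to cut the recovered DNA ahead of adapter joining, and they do not say which sample received which pair. AluI cuts within AGCT, HaeIII within GGCC and MseI within TTAA. RefSeq promoter windows of GRCm38.p6 (250 bases before to 50 after a gene's start) gave the letters, read on the plus strand with 2 extra bases on each side of the peak. Capitals mark an AluI or MseI site cut at the peak's edge. The printed stretches are chr6:5725413-5725625, chr7:109175260-109175429, chr6:52012566-52012665, chr2:26409270-26409363 and chr3:92142759-92142874, in the order shown.
Dync1i1: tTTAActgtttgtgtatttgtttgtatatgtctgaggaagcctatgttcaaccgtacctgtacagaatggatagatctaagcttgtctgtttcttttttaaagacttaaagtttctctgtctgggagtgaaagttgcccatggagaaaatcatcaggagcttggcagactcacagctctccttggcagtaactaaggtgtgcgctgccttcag
Lmo1: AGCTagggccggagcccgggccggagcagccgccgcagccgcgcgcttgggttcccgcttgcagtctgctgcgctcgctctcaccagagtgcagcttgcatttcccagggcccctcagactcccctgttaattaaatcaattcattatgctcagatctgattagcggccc
Skap2: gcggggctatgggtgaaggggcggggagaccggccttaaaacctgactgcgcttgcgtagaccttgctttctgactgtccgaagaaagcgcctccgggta
Inpp5e: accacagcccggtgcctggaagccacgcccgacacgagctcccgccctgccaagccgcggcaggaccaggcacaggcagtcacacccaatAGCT
Lelp1: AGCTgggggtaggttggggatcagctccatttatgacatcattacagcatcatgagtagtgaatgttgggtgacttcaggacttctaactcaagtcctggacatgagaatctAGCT
The peak before Lelp1 ran from 1 AluI site to another, and that before Skap2 had neither site at an edge. Dync1i1 encodes an intermediate chain of cytoplasmic dynein, Lmo1 a LIM-only transcriptional regulator, Skap2 an adaptor of Src-family kinases and Inpp5e a phosphoinositide phosphatase of the primary cilium.

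Over all unshared peaks with an edge inside a promoter window, 65 edges could be read, and 27 of them (41.5%, 29.4 to 54.4) lay exactly at an AluI or MseI cut. AluI accounted for 21 edges (32.3%, 21.2 to 45.1) and MseI for 6 (9.23%, 3.46 to 19.02). None of the 65 lay at a HaeIII cut, which allows a share of up to 5.52%. Any position of the windows begins an AluI site in 0.527% of cases, an MseI site in 0.322% and a HaeIII site in 0.617%. These 65 edges thus sat at AluI and MseI sites far more often than positions in general, and an excess at HaeIII sites was not detectable. Edges outside the windows could not be read.

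Shared peaks had the same enzymes at a smaller share of the edges that could be read. Of 882 edges, 204 (23.1%, 20.4 to 26.1) lay at an AluI or MseI cut, and 4 (0.454%, 0.124 to 1.16) at a HaeIII cut. Over all replicate 2 peaks AluI edges made up 16.6% (15.3 to 17.9) of 3306 and HaeIII edges 1.06% (0.739 to 1.47), above the 0.617% of any position. Of the 3 enzymes AluI had the most edges in both libraries. The replicate 1 peaks without overlap above the cutoff gave 41.6% (36.6 to 46.8) of 375 edges at AluI or MseI, close to the unshared peaks at the cutoff. Shared peaks were also wider, as described below, and the part of width in this difference was not tested.

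**Figure D1:**
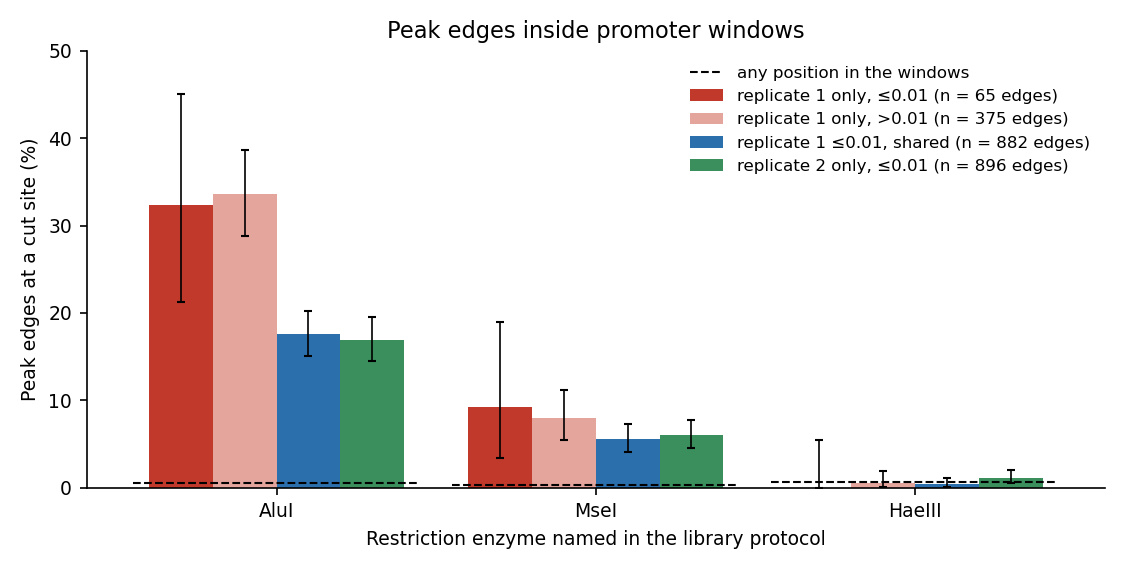
Share of peak edges inside promoter windows at a cut site of each restriction enzyme (y axis, %), for 4 sets of peaks. Whiskers are exact 95% intervals, and dashed lines mark the share of all positions in the windows. The red bars for AluI (32.3%) and MseI (9.23%) stand above the dashed lines, and at HaeIII the red set has 0 of 65 edges.

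The significance value and the overlap chose these peaks, so their values are a description. Unshared peaks ran from 3.09e-29 to 0.0098 with a median of 0.00473 (quartiles 0.00196 and 0.00728). Shared peaks had a median of 0.000384, so the unshared ones gather near the cutoff. Of 1216 replicate 1 peaks with a value of 1e-10 or lower, 3 were unshared. In separate classes of value, the unshared part was 2.52% between 1e-10 and 1e-06, 11.6% between 1e-06 and 0.0001 and 25% between 0.0001 and 0.001. It was 41.1% between 0.001 and 0.003, 51.1% between 0.003 and 0.005 and 58.5% between 0.005 and 0.01. Above the cutoff it was 77.0%.

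At the edge of the rule, 2 unshared peaks had the largest value of 0.0098, and the first values outside it were 0.0103, held by 2 peaks that replicate 2 overlapped. On the side of the overlap, 1 unshared peak touched a replicate 2 peak with 0 bases between, and 5 more had 1 to 20 bases between. Another 28 had 21 to 50. Of the shared peaks 5 met replicate 2 in 20 bases or fewer and 75 in 21 to 50. The border of the overlap thus runs through few peaks, while that of the value runs through many, with 1994 unshared peaks between 0.005 and 0.01. The median shared peak was covered whole by its replicate 2 peak.

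**Figure D2:**
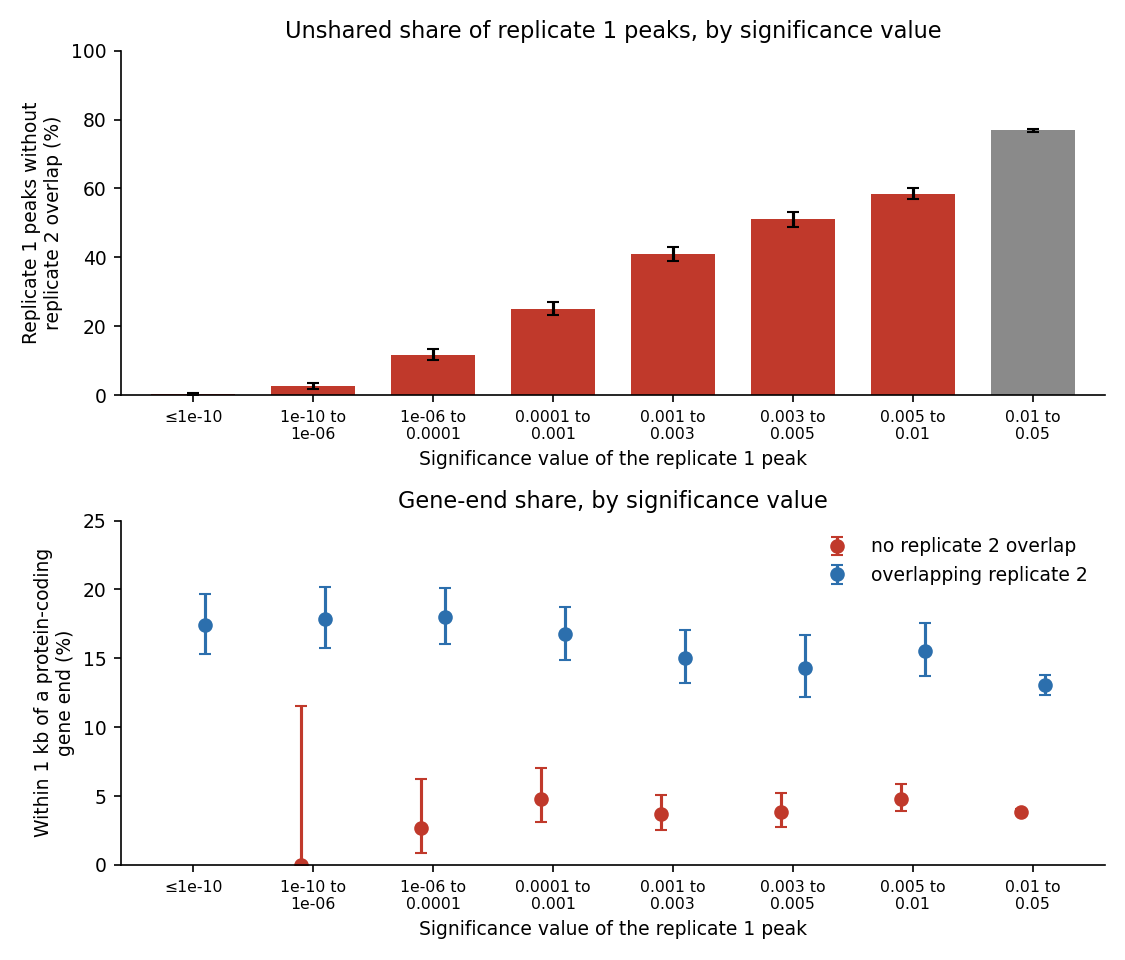
Upper panel, share of replicate 1 peaks without replicate 2 overlap (y axis, %) by significance value (x axis), red up to the cutoff and grey above it. Lower panel, share of peaks no more than 1 kb from a gene end (y axis, %) for unshared (red) and shared (blue) peaks in the same classes of at least 30 peaks. Bars and whiskers are shares with exact 95% intervals, and in every class shown the red points lie under the blue ones.

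The first question was where unshared peaks lie against genes. They were at gene ends less often than shared peaks and far from genes more often. The share of the genome in each place was not computed, so the comparison is with shared peaks only. No more than 1 kb from an end of a protein-coding gene lay 199 of them (4.25%, 3.69 to 4.87) against 1489 shared peaks (16.5%, 15.7 to 17.3). The difference was -12.2 percentage points (-13.2 to -11.3), larger than the counting error of both. Within 100 bp the shares were 0.534% and 2.71%, and within 10 kb 20.6% and 38.7%. Counted to annotated transcription starts only, 2.59% (2.15 to 3.08) of unshared and 14.1% (13.4 to 14.8) of shared peaks were within 1 kb.

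Inside protein-coding genes lay 43.7% (42.2 to 45.1) of unshared and 52.3% (51.2 to 53.3) of shared peaks, a difference of -8.61 points (-10.4 to -6.85). Most of that difference lay in the kilobase next to an end. Deeper inside genes, over 1 kb from any end, the shares were 41.4% (39.99 to 42.8) and 43.5% (42.5 to 44.5). Outside genes and more than 100 kb from any end were 1151 unshared peaks (24.6%, 23.4 to 25.9), against 12.3% (11.63 to 13) of shared peaks. Beyond 500 kb the shares were 5.90% and 1.39%. The median distance to a gene end was 45048 bp for unshared and 20175.5 bp for shared peaks.

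**Figure D3:**
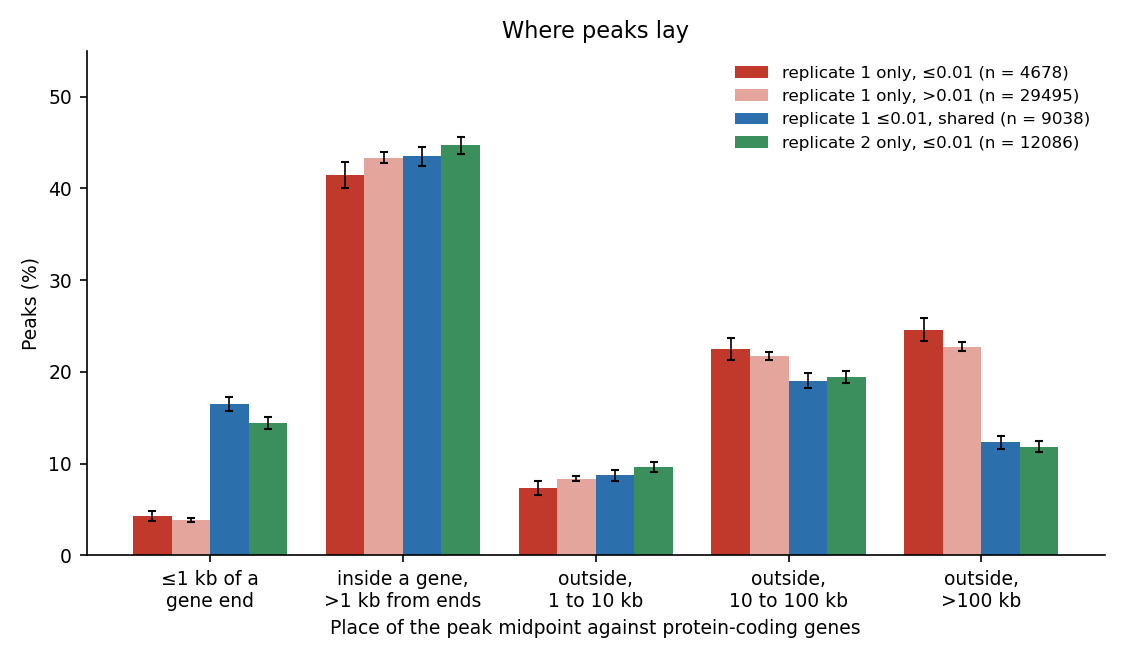
Share of peaks (y axis, %) in 5 places against protein-coding genes (x axis) for 4 sets of peaks, with exact 95% intervals. At gene ends the replicate 1 only sets stand at 4.25% and 3.82% and the other sets at 16.5% and 14.4%, while beyond 100 kb outside genes the order is the opposite.

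The lower share at gene ends was present in every class of significance value with at least 30 unshared peaks. Among peaks with values between 1e-06 and 0.0001, 2.72% (0.888 to 6.23) of 184 unshared and 18.0% (16.02 to 20.1) of 1406 shared peaks were at gene ends. Between 0.005 and 0.01 it was 4.81% (3.92 to 5.85) of 1994 and 15.6% (13.7 to 17.6) of 1414. None of the 30 unshared peaks between 1e-10 and 1e-06 was at a gene end, which allows a share of up to 11.6%. With shared peaks weighted to the significance values of the unshared ones the difference was -11.4 points, and weighted to their widths -12.8 points, both near the unweighted -12.2.

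At gene ends unshared peaks had a share close to that of the weaker replicate 1 peaks without overlap. Of the 29495 replicate 1 peaks above the cutoff without overlap, 3.82% (3.61 to 4.05) were at gene ends, a difference of 0.433 points (-0.154 to 1.09) whose interval holds 0. Inside genes they differed by -1.72 points (-3.24 to -0.181). Peaks found in replicate 2 alone at the same cutoff were placed differently. Of those 12086 peaks, 14.4% (13.8 to 15.1) were at gene ends and 52.7% inside genes. At gene ends the unshared peaks of replicate 1 differed from them by -10.2 points (-11.0 to -9.31), and inside genes by -9.06 points (-10.7 to -7.38). Peaks found in 1 library alone were thus away from gene ends more often in replicate 1 than in replicate 2.

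Genes were sparser around unshared than around shared peaks. The median number of protein-coding genes within 500 kb was 6 (quartiles 2 and 11), against 9 (5 and 17) around shared peaks. Over the 2042 unshared peaks inside genes the median length of the host gene was 150.6 kb, against 106.4 kb over the 4723 shared peaks inside genes. A gene with several peaks counts once for each here, and over all genes, each counted once, the median length was 17.5 kb. Hosts longer than 200 kb took 41.8% of unshared peaks inside genes and 30.5% of the shared ones, while 4.57% of all genes are that long.

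Counted per megabase of gene, unshared peaks changed little with gene length. There were 1.65 per Mb in genes up to 50 kb, 2.23 in genes of 50 to 200 kb, 2.15 in genes over 200 kb and 2.00 in those over 500 kb. Shared peaks thinned out as genes became longer. Their density was 6.17, 5.24, 3.61 and 2.46 per Mb in the same classes, where a peak in overlapping genes counts once for each.

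Width was described only, since a wide peak meets a replicate 2 peak more easily. Unshared peaks had a median width of 166 bp (quartiles 131 and 204) and shared peaks 220 bp (164 and 308). Up to 300 bp wide were 97.2% of unshared and 73.4% of shared peaks. Part of this goes with the significance value, which is tied to width. When peaks were split by value into 10 classes, tied values left 9, and unshared peaks were narrower in 9 of 9. In the class of the smallest values the medians were 210.5 and 276 bp, and in that of the largest 171 and 183 bp.

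The widest unshared peak measured 628 bp and lay inside Sfi1, which encodes a centrosomal protein that binds centrin (chromosome 11, 3197999 to 3198626). The next ones lay 36.7 kb outside Lclat1, an acyltransferase of lysophospholipids (507 bp), inside 1600014C10Rik (505 bp), 1.86 kb outside Slc1a4, a neutral amino acid transporter (481 bp), and 538 kb outside Rnf144a, a ubiquitin ligase (464 bp). The wide peaks at Lclat1 and Slc1a4 had values of 0.0095 and 0.00886, near the cutoff, so wide peaks were not always strong ones.

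Most unshared peaks had no replicate 2 peak nearby. The median gap to the nearest one was 15415 bp (quartiles 4841.8 and 40449.8 bp), and 9.53% (8.71 to 10.4) had one within 1 kb. For shared peaks the nearest replicate 2 peak that they did not overlap was at a median of 1806.5 bp, and 44.8% (43.8 to 45.9) had one within 1 kb. A distance of 0 is what the rule removed, so these distances are not independent of it. Within 500 bp of a replicate 2 peak lay 311 unshared peaks (6.65%, 5.95 to 7.40), and in 142 of these cases that replicate 2 peak overlapped another replicate 1 peak.

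Unshared peaks were also more isolated in their own list. The nearest other replicate 1 peak was at a median gap of 13395.5 bp, against 3374 bp for shared peaks. A replicate 1 neighbour within 1 kb was present for 10.4% (9.53 to 11.3) of unshared and 38.6% (37.6 to 39.6) of shared peaks. Most unshared peaks thus stood alone, and neighbours were more frequent around shared ones.

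**Figure D4:**
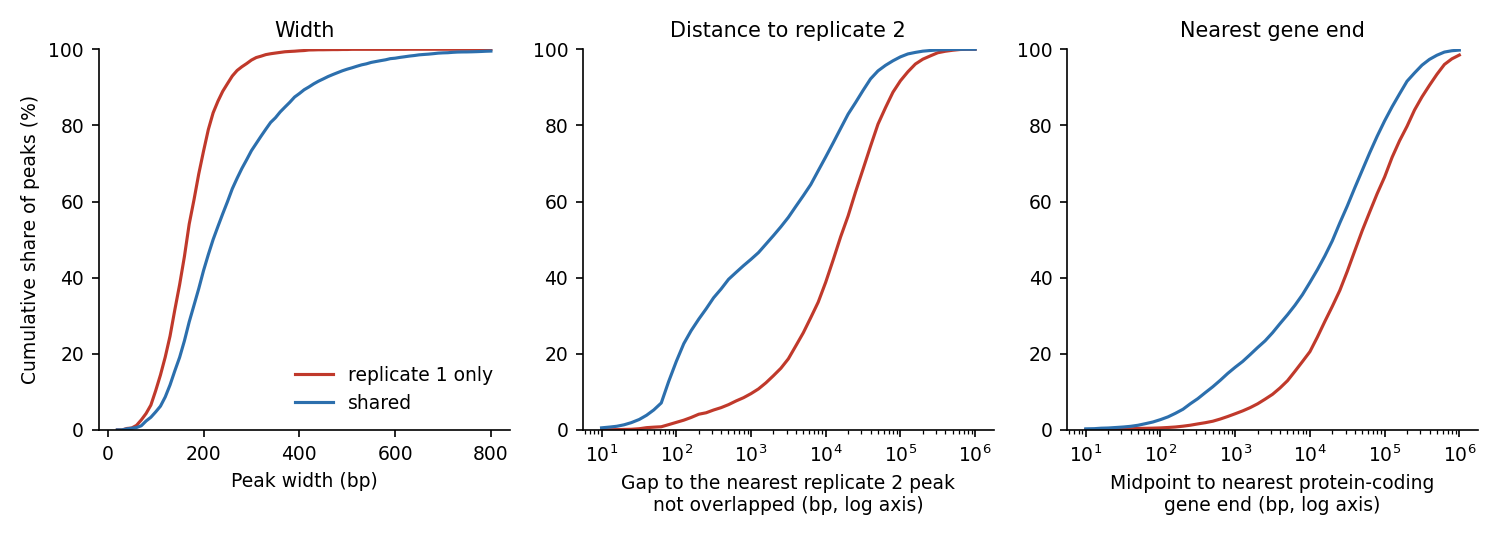
Cumulative share of peaks (y axis, %) by width, by gap to the nearest replicate 2 peak not overlapped, and by distance to the nearest protein-coding gene end (x axes in bp, the last 2 on log axes). Red lines are unshared and blue lines shared peaks. Red reaches 97.2% at a width of 300 bp where blue is at 73.4%, and red lies below blue at gaps of 1 kb (9.53% against 44.8%).

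The unshared peak farthest from replicate 2 lay inside Gm8126 (chromosome 14, 43254385 to 43254445), 1439.5 kb from any replicate 2 peak and 1312.7 kb from any other replicate 1 peak. It was followed by peaks near Tmem196, Pcdh10 and Skint2, at 672.1, 653.2 and 614.3 kb, and by another near Pcdh10 at 600.6 kb. Pcdh10 encodes a protocadherin, and both of its peaks were over 1 Mb from the gene, at 1087 and 1034.3 kb. At the other extreme the peak inside Barx2, a homeobox gene, touched a replicate 2 peak. Those at Zfp608, Bmp7, Sp4 and Cltb had 10, 11, 16 and 17 bases between. Bmp7, a ligand needed for survival of nephron progenitors, was 88.6 kb from its peak.

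The unshared peaks with the smallest values lay mostly away from gene ends. The first was inside Flrt2, whose membrane protein binds FGF receptors and guidance receptors (chromosome 12, 95746876 to 95747114, value 3.09e-29). It had another replicate 1 peak 0.067 kb away and a replicate 2 peak 0.114 kb away. The second, of only 37 bp, lay 164.1 kb outside Gdi2, a GDP dissociation inhibitor of Rab GTPases (chromosome 13, 3373993 to 3374029, value 3.53e-16). The third lay 94.3 kb outside Gadd45a, a stress-induced growth arrest gene (value 1.25e-12).

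Among those that followed, Sfi1 held 1 (value 1.62e-10), 30.6 kb from its nearer end, besides the wide peak described above (8.94e-09). Nectin3, an adhesion molecule of adherens junctions, held 1 at 14.1 kb from an end (1.72e-10). Dlgap1, a postsynaptic scaffold, held 1 with a replicate 2 peak 0.078 kb away (1.83e-10). Others lay 63.7 kb outside Btg1, an antiproliferative gene, inside Ctnna2, which encodes the neuronal alpha-catenin, and 215.2 kb outside Pik3r1, a regulatory subunit of phosphoinositide kinase. Apart from the wide peak in Sfi1, the peak in Nectin3 was the nearest to an end among these, so none of them was within 1 kb. The 3 shared peaks with the smallest values, each deposited as 0, were 717 to 1011 bp wide and also lay away from gene ends, 21.7 kb outside Slamf9, 42.8 kb outside Skap1 and 92.7 kb outside Trib2.

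The 199 unshared peaks within 1 kb of a gene end had 199 nearest genes, with 105 inside the gene and 94 outside. Counting every gene with an end in reach, 218 genes (1.05%) had an unshared peak within 1 kb, against 1447 (7%) with a shared one. The median width (164 bp) and value (0.00473) of the 199 peaks were close to or the same as those of all unshared peaks. They were nearer to replicate 2 peaks, however, with a median gap of 6900 bp against 15781 bp for the other unshared peaks, and 25.6% against 8.82% had one within 1 kb. The smallest value was at Rabepk, an effector of Rab-dependent transport (5.70e-06, 0.439 kb outside the gene, with a replicate 2 peak 0.666 kb away). It was followed by Ppp2r1a, a scaffold subunit of a protein phosphatase (2.27e-05), and by Ercc6l2, a helicase of DNA repair (2.41e-05), which had no replicate 2 peak within 28.7 kb.

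Small values were also found at Nbeal1 (7e-05) and Pate10 (0.000121). Col3a1, the chain of type III collagen made by stromal cells, had its peak just inside the gene, 0.160 kb from the end (chromosome 1, 45311605 to 45311791, value 0.00014), and 47.2 kb from any replicate 2 peak. Vrk1, a nuclear kinase, Mfsd1, a lysosomal transporter, and Dync1i1, whose sequence is shown above, had peaks at 0.288, 0.257 and 0.081 kb outside the gene.

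Promoter windows touched by an unshared peak were few, 41 windows of 36 genes among 20085, against 692 of 634 genes for shared peaks. Their median GC content was 54.7% (quartiles 46.7 and 66), below the 63.0% (57 and 68.1) of windows touched by shared peaks and near the 57.0% of all windows. The ratio of observed to expected CpG had medians of 0.646, 0.732 and 0.586 in that order. Short motifs of the kind WT1 and the EGR factors are known to bind were searched for on both strands. GCGTGGG was in 5 of the 41 (12.2%, 4.08 to 26.2), 17.1% of the 692 and 6.45% of all windows. GTGGGAG was in 9 of 41 (21.95%, 10.6 to 37.6), 21.5% and 10.02%.

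For GGGGGCG the shares were 19.5% (8.82 to 34.9), 36.3% (32.7 to 39.98) and 21.9%, and for TCCTCC 39.0% (24.2 to 55.5), 51.9% (48.1 to 55.7) and 36.6%. With 41 windows the intervals held both other shares for GCGTGGG and TCCTCC, so a difference was not detectable there. For GTGGGAG the interval lay just above the share of all windows, and for GGGGGCG just below that of windows touched by shared peaks. The 41 windows belong to 36 genes, so some share a gene, which the intervals do not cover. Margins this narrow are therefore not read as differences. A motif can overlap another in the same window, and it can lie outside the peak that touches the window. AGCT, the AluI site, was in 40 of the 41 windows (97.6%, 87.1 to 99.9), in 649 of the 692 touched by shared peaks (93.8%) and in 76.6% of all windows. An AluI edge read in a window puts AGCT in it by construction, so these shares are not independent of the edges above. Peaks lying wholly in a window were read with chromosomes 8 and 18 left out. Of 12 such unshared peaks, 0 held GCGTGGG, which allows a share of up to 26.5%, against 14 of 122 shared peaks (11.5%). GTGGGAG was in 1 of these 12 (8.33%, 0.211 to 38.5) and in 17 of the 122 (13.9%). For GGGGGCG the counts were 1 and 25, and for TCCTCC 2 and 40. As 1 example, the shared peak upstream of Rusc1 (chr3:89093367-89093588, value 8.39e-20) holds GCGTGGG and GTGGGAG on the minus strand, in capitals here on the plus strand. It had the smallest value of the upstream shared peaks read, and by the counts above it is not typical of the 122.
Rusc1: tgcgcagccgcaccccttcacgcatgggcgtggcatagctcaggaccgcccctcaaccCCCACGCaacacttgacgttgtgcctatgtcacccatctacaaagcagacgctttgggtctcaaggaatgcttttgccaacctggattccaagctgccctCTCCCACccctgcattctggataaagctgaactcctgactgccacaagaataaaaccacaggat

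The next question was which genes had unshared peaks. At least 1 lay within 10 kb of an end of 1226 of the 20665 genes (5.93%), and at least 1 shared peak did so for 3662 genes (17.7%). Both kinds were present at 276 genes (1.34%). The first pair of shares is the background for the lists below. In 22 lists of kidney cell types, signalling pathways and other groups, the share of genes with an unshared peak ran from 0 to 2.28 times that of all genes, with a median of 1.47 times, and was at least 1.5 times as high in 11 of 22 lists. Its exact interval held the background share in 22 of 22 lists. For shared peaks the interval held the background in 11 of 22. Lists have 18 to 57 genes and counts of 0 to 5, so the intervals are wide, and a lack of difference from the background is not shown by them.

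Podocytes form the glomerular filter, and 2 of 38 podocyte genes had an unshared peak (5.26%, 0.644 to 17.8), 0.887 times the share of all genes. With shared peaks it was 19 of 38 (50%, 33.4 to 66.6), 2.82 times the share of all genes. The genes were Npnt, whose product nephronectin lies in the glomerular basement membrane (1.62 kb from an end, inside the gene, value 0.00111), and Podxl, which encodes the surface sialomucin podocalyxin (4.17 kb outside, value 0.00824). Neither had a shared peak within 10 kb. The unshared peak at Podxl had a replicate 2 peak 0.04 kb away.

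Nephron progenitor genes had an unshared peak in 3 of 27 cases (11.1%, 2.35 to 29.2) and a shared one in 17 of 27 (63.0%). They were Eya1, a transcriptional cofactor of kidney induction, with 2 unshared peaks and no shared one within 10 kb of its ends, Traf1, an adaptor of tumour necrosis factor receptors, whose peak was 0.017 kb from an end, and Dpf3, a chromatin factor, which also had 2 shared peaks. Genes of the renal vesicle and early nephron gave 2 of 20, Hnf4a and Pou3f3, and ureteric bud genes 1 of 23, Elf5. Stroma gave 2 of 24, Col3a1 and Vcam1, against 8 of 24 with shared peaks. Relative to all genes, renal vesicle genes had 1.69 times the share for unshared and 1.69 times for shared peaks, and nephron progenitor genes 1.87 and 3.55 times.

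On the signalling lists counts were again lower for unshared than for shared peaks, as they are over all genes (5.93% and 17.7%). Notch genes had an unshared peak in 2 of 32 cases, Mib1, a ubiquitin ligase that activates ligands, and Numbl, against 18 of 32 with shared peaks. FGF genes had 2 of 38, the ligand gene Fgf17 and Fgf11, against 13. BMP and TGF-beta genes had 4 of 40, among them the ligand gene Bmp4, the receptor gene Acvr1 and the transducer gene Smad4, against 14, which is 1.69 and 1.98 times the shares of all genes. Wnt genes had 4 of 57, among them the ligand gene Wnt8b, the receptor gene Fzd2 and Znrf3, which removes Wnt receptors, against 20. Hippo genes had 3 of 26, against 12.

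The Hippo peaks included the smallest significance value of any listed gene within 10 kb of an end. It was inside Stk3, the kinase at the head of the pathway, 2.59 kb from an end (chromosome 15, 34878003 to 34878170, value 3.10e-08), with the nearest replicate 2 peak 31.3 kb away. Lats2, the kinase downstream of it, had 1 at 1.17e-05, and Tead3, a DNA-binding partner of the pathway, 1 at 0.00627. Retinoic acid genes gave 2 of 19, Dhrs3 and the receptor gene Rarb, against 6. Hox genes gave 5 of 39 against 29 of 39 with shared peaks, the largest difference in number among the 22 lists. Hoxc4 and Hoxc5 were counted through the same unshared peak, and Hoxb13 through another.

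In 2 of the 22 lists more genes had an unshared than a shared peak. Proximal tubule genes gave 3 of 25 (12%, 2.55 to 31.2) against 1 of 25, through Ttc36, the endocytic receptor gene Cubn and Hnf4a. Liver genes gave 2 of 22 against 0, through Fgb, a fibrinogen chain, and Ahsg. The intervals of these shares include the 5.93% of all genes. Immune genes gave 1 of 20 (Cd4) for both kinds of peak. Endothelial genes gave 1 of 24 (Tal1), loop and distal tubule genes 2 of 20 (Umod and Sim1) and neuronal genes 0 of 18. Classical cadherins gave 1 of 22 (Cdh12).

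Actin cytoskeleton genes gave 5 of 37, among them Diaph1, a formin, Enah and Vcl, which encodes vinculin, against 12 with shared peaks. Housekeeping genes gave 3 of 26 against 4 of 26, and they were Polr2a, Eef1a1 and Actb. For actin and housekeeping genes the shares of 13.5% (4.54 to 28.8) and 11.5% (2.45 to 30.2) again span the background.

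**Figure D5:**
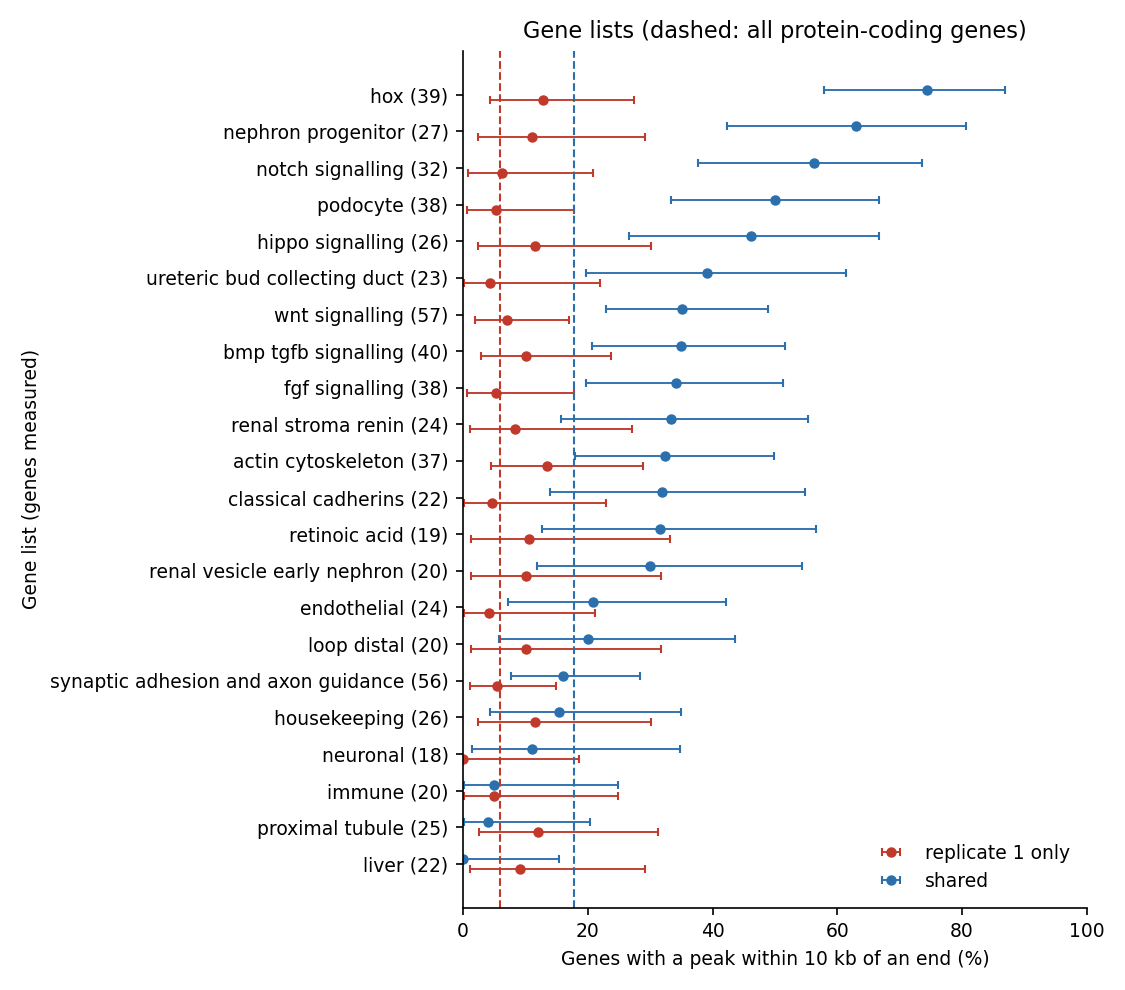
Share of genes with a peak within 10 kb of an end (x axis, %) on 22 gene lists (y axis, genes measured in brackets), red for unshared and blue for shared peaks, with exact 95% intervals. Dashed lines mark all protein-coding genes, at 5.93% and 17.7%. Red intervals include the red line on every list, while blue points for Hox, nephron progenitor, Notch and podocyte genes lie far to the right of the blue line.

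Counting the whole gene with 10 kb around it brought out long genes. The backgrounds became 10.9% for unshared and 22.8% for shared peaks. Genes of synaptic adhesion and axon guidance, most of them very long, then had an unshared peak in 41 of 56 cases (73.2%), against 3 of 56 at their ends. A shared peak was present in 33 of 56 (58.9%). Their median length was 906.8 kb. Per megabase of gene they held 1.61 unshared and 1.46 shared peaks, and all genes over 500 kb held 2.00 and 2.46, so per length this list was not above other long genes. Tenm2 and Tenm3, teneurin adhesion receptors, held or flanked 5 each, and Nrxn3, Opcml and Ctnna2 4 each.

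Over whole genes 9 of 38 podocyte genes had an unshared peak (23.7%), against 28 with a shared one. Most were long. Magi2, a scaffold of the slit diaphragm (1485.4 kb), and Robo2, a guidance receptor (1555.5 kb), had 3 each, and Cd2ap, which links the slit diaphragm to actin, Pla2r1 and Arhgap24 had 2 each. Unshared and shared peaks per megabase of podocyte genes were 2.12 and 5.80. In all genes they were 2.06 and 4.81.

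Every unshared peak was also given to its nearest gene, which named 3062 genes (14.8% of all), and 69.8% of them had just 1. Of these genes 51.5% were also the nearest gene of a shared peak, against 23.1% of all genes. Auts2, a neurodevelopmental regulator of 1105.9 kb, had 12 unshared peaks, 8 of them inside, and 23 shared ones. Pcdh9 had 12 (5 shared), Pcdh7 10 (3 shared), Zfp608 10 (16 shared) and Epha4, an ephrin receptor, 9 (8 shared). Pcdh9 and Pcdh7 encode protocadherins, adhesion proteins of the cadherin superfamily, and 2 of the unshared peaks of each lay inside the gene.

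The unshared part of replicate 1 peaks at the cutoff varied between chromosomes. It was lowest on chromosome 11 (245 of 905, 27.1%, 24.2 to 30.1), which has 1609 of the protein-coding genes. It was highest on chromosome 3 (310 of 761, 40.7%, 37.2 to 44.3), with 983 genes, and on chromosome 18 (222 of 557, 39.9%), with 511. The order did not simply follow gene number. Chromosome 19, with 705 genes, had 29.2%, and chromosome 7, with the most genes (2030), had 32.2%. Every chromosome from 1 to 19 had at least 113.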

How the data were processed

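Per the labels, the samples are WT1 and IgG immunoprecipitations of E18.5 mouse kidneys, 2 each, and the build is mm10, per the submitters' processing notes. The deposited peak list of each WT1 sample gives positions and 1 value per peak, a p-value or q-value with none above 0.05. The deposited table of regions found in both replicates gives an irreproducible discovery rate (IDR, per its row names), handled as a p-value or q-value and used only as an alternative. The aligner, the peak caller and the use of IgG reads stay unstated in the sources. Recovered DNA went through 18 PCR rounds, per the labels' protocols. Starts were read as 0-based, which the restriction cuts at peak edges bear out, and turned into 1-based positions.

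Overlaps, gaps, gene distances and shares were computed in Python 3.11.15 (pandas 2.3.3, scipy 1.17.1) with functions tested on simulated data. Genes and promoter windows are RefSeq GRCm38.p6. Of 621 listed symbols, 606 matched genes of chromosomes 1 to 19. Named genes are those nearest to the 10 smallest values overall and at gene ends, the 5 widest, 5 farthest and 5 nearest to replicate 2, the 5 genes with most unshared peaks, and up to 3 a list with the smallest value. Some genes that the rule names are not reported here. The members and lists were chosen with earlier results of these data known. The 10 strata planned over the significance value gave 9, since values tie. The split by gene length and the gene families were added after seeing the data. Depth is unknown.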

Additional observations from a re-analysis of the deposited data

Results flagged for a closer look

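The placement of unshared peaks covers chromosomes 1 to 19. Elsewhere, in peaks that no comparison used, replicate 1 had 101 peaks at the cutoff without replicate 2 overlap. On the X chromosome these were 98 of 204 peaks (48.0%, exact 95% interval 41.0 to 55.1), above the 34.1% of chromosomes 1 to 19, and on unplaced contigs 3 of 9.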

How the results depend on the processing

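In 15 of 15 alternatives the share of unshared peaks at gene ends was below that of shared peaks, and in 11 of 11 the share inside genes. The difference at gene ends was -13.4 percentage points at a cutoff of 0.001 and -10.9 with no cutoff, -14.0 with genes of any kind, -15.2 against shared peaks in a reproducible region (IDR of 0.05 or lower), and -9.05, -14.8 and -18.2 with windows of 500 bp, 2 kb and 10 kb. The difference inside genes was -6.63 points at a cutoff of 0.001 and -6.80 with no cutoff. The median width of unshared peaks was 202, 174 and 127 bp at cutoffs of 0.001 and 0.005 and with no cutoff, and 170 bp when at least 50 percent of a peak had to be overlapped to be shared. Their median gap to replicate 2 was 13419.5 bp at a cutoff of 0.001, 17595 bp when peaks within 500 bp counted as shared, and 13192 bp under the overlap of 50 percent. The number of unshared peaks was 718, 2684 and 34173 at cutoffs of 0.001 and 0.005 and with no cutoff. Genes with 1 near an end were 187 at a cutoff of 0.001, and 2249 over whole genes. A smaller set or a wider window gives fewer or more by construction, and other causes were not tested. Fewer genes had an unshared than a shared peak in 19 of 22 lists, in 18 over whole genes and in 20 at a cutoff of 0.001. The same held over all genes, with 1226 against 3662, 2249 against 4717 and 187 against 2381 in that order, so it is not particular to the lists. No paired analysis was possible because the IgG samples were not analysed here and the result comes from no test. Leaving out a replicate could not be run, because both define the unshared peaks. Depth is unknown, so few reads in replicate 2 and no binding there cannot be told apart.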

Other observations

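Gene families taken by symbol, chosen after the data were seen, showed a spread of their own. Olfactory receptor genes had an unshared peak within 10 kb of an end in 17 of 1104 cases (1.54%, exact 95% interval 0.8995 to 2.45) and a shared one in 12 (1.09%, 0.563 to 1.89). Both lie below all genes (5.93% and 17.7%). Vomeronasal receptor genes gave 6 and 2 of 354. Ribosomal protein genes gave 1 of 76 with unshared and 16 of 76 with shared peaks, and protocadherins 0 and 21 of 67. Solute carrier genes gave 34 of 362 (9.39%) and 73 (20.2%), and zinc finger genes named Zfp 29 and 57 of 391. Many genes of these families lie side by side, so 1 peak can count for several.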
